A study of Mus musculus with 7 samples.

Results

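Mitochondrially encoded RNA was followed among the RNAs precipitated with an antibody to EZH2 from mouse embryonic stem cells. It was taken as the counted intervals (features) on the mitochondrial chromosome of mm10, on either strand, each named by the GENCODE M21 mt- gene that it overlaps. The table held 12 such features among 303889 in all, 7 on the plus strand and 5 on the minus strand. No mitochondrial feature was in the authors' filtered list of 33671 peaks.

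RNA immunoprecipitation sequencing counts RNA fragments that come down with an antibody. The antibody was raised against human EZH2, a histone methyltransferase, and by the title of the series it also binds SAFB, a nuclear RNA-binding protein. All cells, WT included, were of the strain CAST/B6 Male Rosa26-RMCE, grew in medium with 15% serum at 37 °C and 5% CO2, and had 3 days of doxycycline, whose target is not named in the labels. The SAFB DKO group (safb/2 dko) comprised clone 13 and clone 4, which lack both Safb and Safb2. The EZH2 KO group comprised clone 12 and clone 19. The WT group had 3 libraries, from the parental cells (replicate 1), clone 20 (replicate 2) and clone 44 (replicate 3). Both SAFB DKO labels carry the same replicate number, so clone 13 is called replicate 1 here and clone 4 replicate 2. The p-values measure the spread between these clones and the parental line. SAFB DKO against WT asks which precipitated RNA depends on the SAFB proteins, and EZH2 KO against WT asks which depends on EZH2.

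Total counts were 18738499 and 15812517 in SAFB DKO, 7050832 and 8353603 in EZH2 KO, and 19024702 to 21832539 in WT. The EZH2 KO columns are named by another pattern than the rest; if they come from another sequencing run, genotype and run cannot be told apart. Safb had 1.41 and 0.592 CPM (the normalised read count of the edgeR fit) in SAFB DKO, against 239, 245 and 117 CPM in WT, where replicate 3 was lower than the other 2. Ezh2 had 2.26 and 0.157 CPM in EZH2 KO, against 173, 202 and 165 CPM in WT. Safb2 had 2.92 and 0.807 CPM in SAFB DKO, 616 and 749 CPM in EZH2 KO, and 289, 302 and 124 CPM in WT. It thus rose in EZH2 KO (log2 1.52, edgeR adjusted p = 0.00191). Safb had 284 and 314 CPM in EZH2 KO and did not pass there (log2 0.58, edgeR adjusted p = 0.0774). What these levels do to the EZH2 KO precipitate was not tested. Of 15 embryonic stem cell markers 14 had a feature, and their summed level was 4930 to 5250 CPM in SAFB DKO, 4340 to 4840 CPM in EZH2 KO and 4460 to 4690 CPM in WT (9 rose and 2 fell in SAFB DKO, 4 rose and 6 fell in EZH2 KO); Sox2 had none. The 8 fibroblast markers, which would mark feeder cells, summed to at most 11.9 CPM in any library, and Col1a2, Lum, Dcn and Postn had no feature. Markers of differentiated cells were not even between groups. The neural markers summed to 82.2 to 83.4 CPM in SAFB DKO, 78.5 to 113 CPM in EZH2 KO and 175 to 248 CPM in WT, with 2 of 4 markers having a feature (Sox1 and Neurod1 had none). The trophectoderm markers summed to 6.46 to 7.78 CPM in SAFB DKO, 17 to 21.3 CPM in EZH2 KO and 11.7 to 14.8 CPM in WT (3 of 4 with a feature, Elf5 without), and the mesendoderm markers to at most 1.84 CPM in any library (2 of 6 with a feature). The part of these markers in the results below was not tested.

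Mitochondrial DNA is a small circle that is copied into long RNAs from both strands, which are cut, mostly at the transfer RNAs between the genes, into messenger, ribosomal and transfer RNAs. Every mitochondrial messenger RNA encodes a subunit of the respiratory chain or of the ATP synthase: mt-Nd genes encode subunits of complex I, mt-Cytb the cytochrome b of complex III, mt-Co genes subunits of complex IV, and mt-Atp genes subunits of the ATP synthase. All of them are read from the plus strand of the reference except mt-Nd6. RNA opposite to a gene is made as part of the same long transcripts and is normally removed quickly inside the organelle. EZH2 and SAFB are known as nuclear proteins.

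The features covered part of this genome. Of 13 protein-coding genes 7 had a feature on their own strand and 6 had none on either strand, namely mt-Co2, mt-Atp8, mt-Atp6, mt-Co3, mt-Nd3 and mt-Nd4l. Neither of the 2 ribosomal RNA genes, mt-Rnr1 and mt-Rnr2, had a feature, so no ribosomal RNA level can be given. Per the labels' protocols the libraries were made with the RiboErase version of an RNA kit, which removes ribosomal RNA. Of 22 transfer RNA genes 1, mt-Te, lay in a feature on its strand. Features covered 4684 bases of the plus strand and 5416 bases of the minus strand, with 3763 positions inside features of both strands.

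On the plus strand, mt-Nd1 (chrM:2832-3688), mt-Nd2 (chrM:4211-4467), mt-Nd4 (chrM:11098-11357), mt-Nd5 (chrM:11944-13790) and mt-Cytb (chrM:14328-15214) had 1 feature each. mt-Co1 had 2, called mt-Co1 (1) (chrM:5457-5669) and mt-Co1 (2) (chrM:5974-6336) here. These 7 lay inside the coding genes, apart from the end of the mt-Nd5 feature, which ran past that gene into mt-Nd6 on the opposite strand. On the minus strand, 4 features lay only opposite to genes: mt-Nd1 antisense (chrM:2721-3615), mt-Nd2 antisense (chrM:4035-4718), mt-Co1 antisense (chrM:5601-5682) and mt-Cytb antisense (chrM:14590-15135). The remaining minus-strand feature, named mt-Nd6 by the rule (chrM:11021-14229), was 3209 bases long, of which 588 lay in mt-Nd6 and mt-Te on their strand and 2630 lay opposite to mt-Nd4, mt-Th, mt-Ts2, mt-Tl2, mt-Nd5 and mt-Cytb. It counts as a messenger RNA feature below because it covers all 519 bases of mt-Nd6, but most of its bases are antisense.

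The sequences below show why strand decides which RNA a count belongs to. They were read from the GENCODE M21 transcripts of GRCm38 (the assembly of mm10) and are written 5′ to 3′ on the strand of each RNA. The ends of mt-Nd5 and mt-Nd6 overlap on opposite strands by 14 bases, shown in capitals (chrM:13522-13595, plus strand for mt-Nd5 and minus strand for mt-Nd6).
mt-Nd5 end: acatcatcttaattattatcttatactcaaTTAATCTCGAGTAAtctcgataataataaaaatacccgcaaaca
mt-Nd6 end: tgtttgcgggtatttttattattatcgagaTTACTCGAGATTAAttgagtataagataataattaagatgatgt
The mt-Co1 antisense feature (chrM:5601-5682, minus strand) and the same positions of the plus strand are shown next, with the 69 bases that lie in features of both strands in capitals.
mt-Co1 sense: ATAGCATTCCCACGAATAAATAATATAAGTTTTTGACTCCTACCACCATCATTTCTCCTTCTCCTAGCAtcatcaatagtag
mt-Co1 antisense: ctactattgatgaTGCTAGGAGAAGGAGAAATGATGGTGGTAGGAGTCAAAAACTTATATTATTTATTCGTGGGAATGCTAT
The last shows the junction inside the mt-Nd6 feature (chrM:14041-14139, minus strand), where the transfer RNA mt-Te, in capitals, is followed directly by the start of mt-Nd6.
mt-Te and mt-Nd6 start: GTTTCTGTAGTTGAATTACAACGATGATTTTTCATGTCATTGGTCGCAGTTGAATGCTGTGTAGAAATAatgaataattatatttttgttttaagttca
The strands also differ in base content: G made up 10.1% to 17.9% of the bases in the plus-strand features and 26.7% to 29.9% in the minus-strand features.

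The genes without features lay together. The longest stretch with no feature on either strand ran over 4684 bases (chrM:6337-11020), from inside mt-Co1 to inside mt-Nd4, and the next over 2720 bases (chrM:1-2720), which holds both ribosomal RNA genes. Of the 50-base windows of the longest stretch, 87.1% also occur letter for letter in an annotated nuclear transcript, against 0.610% of the windows of the next. In the 12 features this share was 0% to 32.8%, with the 2 highest values in mt-Co1 (2) and mt-Co1 (1). By gene, 100% of the windows of mt-Co2, 99.5% of mt-Atp6, 99.9% of mt-Co3, 98.0% of mt-Nd3 and 98.8% of mt-Nd4l were shared, against 0% of mt-Rnr1, 1.04% of mt-Rnr2 and 0% of mt-Atp8, which also had no feature. The nuclear transcripts with most shared windows were Gm28439, Gm28437, Gm28661 and Gm10925, annotated nuclear copies of mitochondrial DNA. The counting command in the file header does not set the option that counts reads with several alignments; whether that accounts for the missing genes was not tested.

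**Figure D1:**
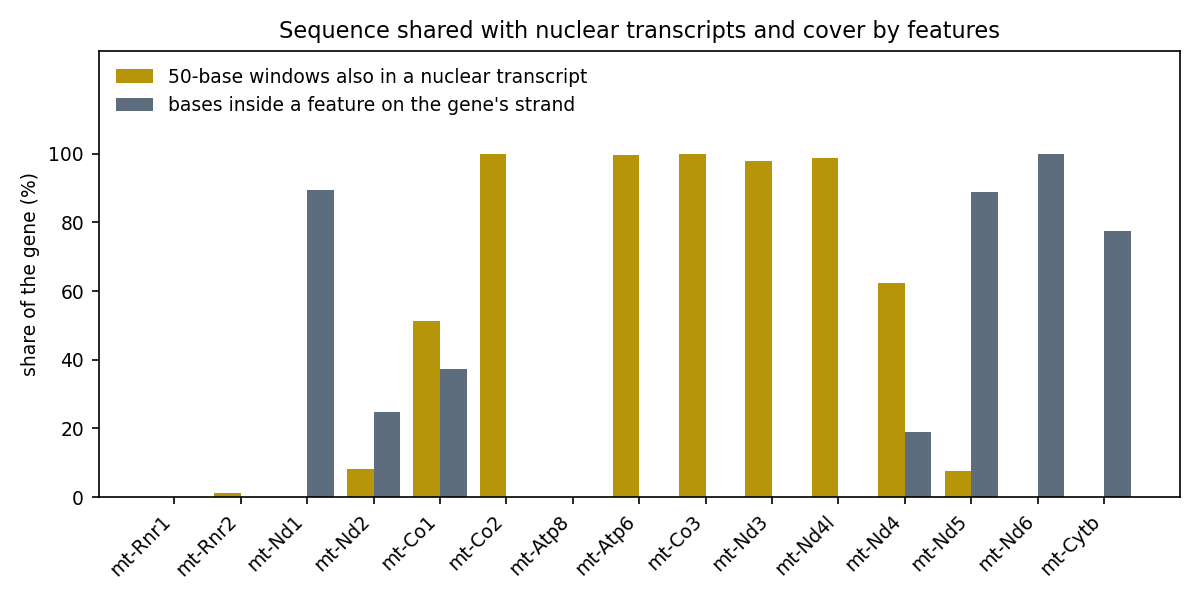
Bars give, for each mitochondrial ribosomal RNA and protein-coding gene, the share of 50-base windows that also occur in an annotated nuclear transcript (ochre) and the share of bases inside a feature on the gene's own strand (grey), both in percent. The 5 genes with shared windows of 98.0% to 100% have no covered base, and so do mt-Rnr1, mt-Rnr2 and mt-Atp8, where shared windows reach at most 1.04%.

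Mitochondrial RNA was a larger share of the precipitate without the SAFB proteins and a smaller share without EZH2. The 12 features together had 133764 and 134243 counts in SAFB DKO, 3265 and 7331 counts in EZH2 KO, and 63509, 70060 and 89201 counts in WT. As a share of all counts this was 0.714% and 0.849% in SAFB DKO, 0.0463% and 0.0878% in EZH2 KO, and 0.291%, 0.3328% and 0.469% in WT. The groups did not overlap, with SAFB DKO highest and EZH2 KO lowest. Within WT, replicate 3 was highest. It was also the WT library with the lowest Safb and with the fewest counts in all. Whether either goes with its share was not tested. The mean share was 0.781% ± 0.0955 in SAFB DKO (SD, n = 2), 0.0670% ± 0.0293 in EZH2 KO (n = 2) and 0.364% ± 0.0931 in WT (n = 3). The ratio to WT was thus 2.15 for SAFB DKO and 0.184 for EZH2 KO, or 1.10 and -2.44 on the log2 scale. The rest of the libraries also differed. The authors' short list of 10043 peaks took 1.84% and 2.12% of counts in SAFB DKO, 24.13% and 27.35% in EZH2 KO, and 14.99% to 15.75% in WT. With filtered-list or short-list counts left out of the total, the log2 ratio was 0.87 to 0.89 in SAFB DKO. In EZH2 KO it was then -2.24 to -2.23. For the shares of all counts, exact two-sided permutation tests of each knockout against WT gave p = 0.1 (adjusted p = 0.15 over 15 share comparisons). That is the smallest value that 3 against 2 libraries can give. For 2 against 2 libraries no p-value under 0.05 is possible, so SAFB DKO and EZH2 KO are compared by their values alone. Counting error was small beside the spread of clones: the widest relative interval was that of EZH2 KO replicate 1, 0.0447% to 0.0479% (95%, Clopper-Pearson, counting error only). Fewer cells of a type and less RNA per cell cannot be told apart in these bulk samples. No input libraries were used here, so a change in the RNA of the cells and a change in what was precipitated cannot be told apart either.

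**Figure D2:**
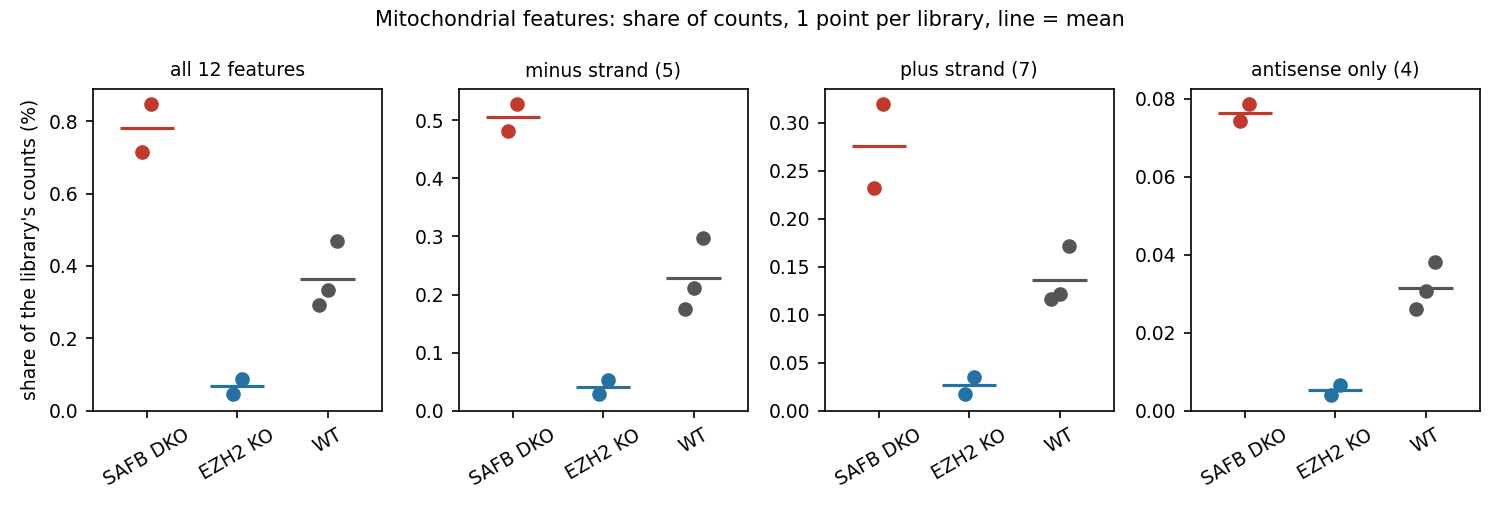
Each point is 1 library and each line a group mean; the y axis gives the percent of the library's counts in all 12 features, the 5 minus-strand, the 7 plus-strand and the 4 purely antisense features, with a separate scale from 0 in each panel. In every panel the 2 SAFB DKO points lie above the 3 WT points and the 2 EZH2 KO points lie below them (all features: 0.714% and 0.849%, then 0.0463% and 0.0878%, then 0.291% to 0.469%).

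The same order was seen on each strand and in each class. Messenger RNA features took 0.640% and 0.770% of counts in SAFB DKO, 0.0424% and 0.0813% in EZH2 KO, and 0.265%, 0.302% and 0.431% in WT. Most counts of this class came from the mt-Nd6 feature, whose bases are mostly antisense. In replicate 1 of each group it held 76471 of 119874 counts (SAFB DKO), 1745 of 2987 (EZH2 KO) and 32485 of 57845 (WT). The 4 purely antisense features took 0.0741% and 0.0787% in SAFB DKO, 0.00394% and 0.00649% in EZH2 KO, and 0.0259%, 0.0306% and 0.0381% in WT. Neither class overlapped between groups. In a fit over all genes in which the mitochondrial features were summed by class (edgeR quasi-likelihood test; a change is a p-value under 0.05 after adjustment by Benjamini and Hochberg; 15.3% of the 16709 rows rose in SAFB DKO and 22.5% fell in EZH2 KO), the sum of all 12 rose 1.84-fold in SAFB DKO against WT (log2 fold change 0.88, SE 0.27, adjusted p = 0.0162). It fell in EZH2 KO against WT by 2.14 on the log2 scale (SE 0.30, edgeR adjusted p = 0.000113). The antisense sum rose by 1.05 (SE 0.22, edgeR adjusted p = 0.00151) in SAFB DKO and fell by 2.31 (SE 0.25, edgeR adjusted p = 2.34e-05) in EZH2 KO.

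The call for SAFB DKO depended on single libraries, and that for EZH2 KO did not. The log2 fold change of the sum in SAFB DKO was 0.72 without SAFB DKO replicate 2 (edgeR adjusted p = 0.12), 0.73 without WT replicate 1 (0.0702) and 0.80 without WT replicate 2 (0.0602), and none of these passed. The antisense sum passed in every fit, with log2 fold changes of 0.92 to 1.18 when 1 library was left out. In EZH2 KO the sum fell by 1.72 without EZH2 KO replicate 1 and by 2.95 without EZH2 KO replicate 2, and passed both times.

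Feature by feature, 6 of the 12 rose in SAFB DKO against WT and none fell, where 2.26% of all 192964 tested features rose and 17.4% fell. Without adjustment, 11 of the 12 had an edgeR p under 0.05. The share of all tested features under that unadjusted threshold is not given here, so the 11 have no background. The log2 fold changes of the 12 ran from 0.54 to 1.30 with a median of 0.85, beside a median of -0.17 over all tested features. In EZH2 KO against WT 11 of the 12 fell and none rose, where 8.07% of all tested features fell and 7.50% rose; their median was -2.02, beside -0.21 over all. All 12 were tested. They were also counted deeply: 11 had mean WT counts above those of 98.46% or more of tested features, whose median was 24 counts, and mt-Co1 antisense had 70.0 counts. Tested nuclear features that lie in exons of 1 gene, a set formed after the data were seen, had a median log2 fold change of 0.32 in SAFB DKO (5.32% of 59339 rose) and -0.63 in EZH2 KO (14.7% fell).

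**Figure D3:**
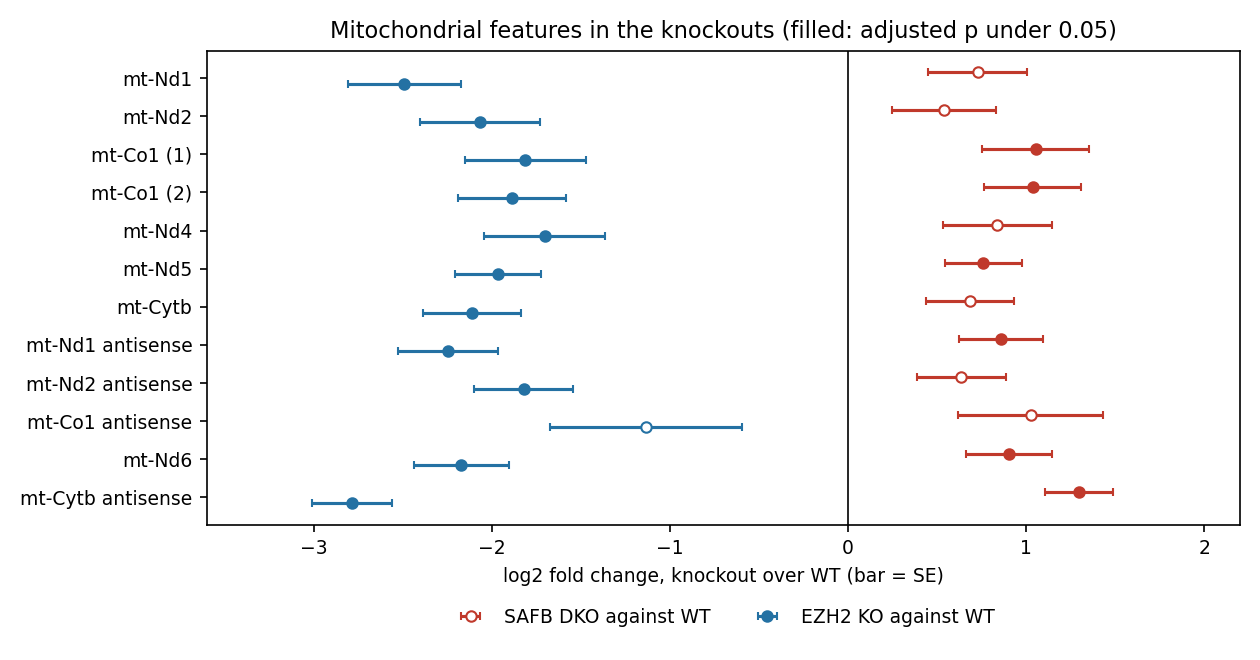
Points give the log2 fold change of each mitochondrial feature in SAFB DKO against WT (red, above) and EZH2 KO against WT (blue, below), bars the SE, and filled points an edgeR adjusted p under 0.05. All SAFB DKO points lie right of 0, from 0.54 to 1.30, with 6 filled; all EZH2 KO points lie left of 0, from -1.13 to -2.78, with 11 filled.

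Among complex I messenger RNAs, mt-Nd5 encodes a large proton-pumping subunit. It had 529 and 592 CPM in SAFB DKO, 54.0 and 116 CPM in EZH2 KO, and 302, 297 and 394 CPM in WT. The 3 groups did not overlap. It rose 1.69-fold in SAFB DKO (log2 0.76, SE 0.22, edgeR adjusted p = 0.0195) and fell 3.90-fold in EZH2 KO (log2 -1.96, SE 0.24, edgeR adjusted p = 8.2e-05). mt-Nd1, a membrane subunit next to the quinone site, had 426 and 625 CPM in SAFB DKO, 32.3 and 80.5 CPM in EZH2 KO, and 266, 254 and 432 CPM in WT. SAFB DKO replicate 1 thus lay just below WT replicate 3, the difference from WT did not pass (log2 0.73, SE 0.28, edgeR adjusted p = 0.0809), and the fall in EZH2 KO was 5.62-fold (log2 -2.49, SE 0.32, edgeR adjusted p = 0.000112).

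mt-Nd4, another proton-pumping subunit, had 140 and 223 CPM in SAFB DKO, 15.2 and 47.2 CPM in EZH2 KO, and 82.5, 95.6 and 126 CPM in WT. Its groups did not overlap, yet SAFB DKO did not pass at the feature level (log2 0.84, SE 0.31, edgeR adjusted p = 0.0666), while EZH2 KO fell (log2 -1.70, SE 0.34, edgeR adjusted p = 0.00319). mt-Nd2, likewise a proton-pumping subunit, had 64.9 and 89.0 CPM in SAFB DKO, 6.16 and 19.2 CPM in EZH2 KO, and 47.8, 45.7 and 65.5 CPM in WT. Here too SAFB DKO replicate 1 lay below WT replicate 3, and the difference from WT, 0.54 on the log2 scale (SE 0.29, edgeR adjusted p = 0.239), was the smallest of the 12 features. EZH2 KO fell (log2 -2.07, SE 0.34, edgeR adjusted p = 0.000746).

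mt-Co1 encodes the catalytic subunit of cytochrome c oxidase, the last complex of the electron transport chain. mt-Co1 (1) had 115 and 180 CPM in SAFB DKO, 10.2 and 30.4 CPM in EZH2 KO, and 56.3, 66.5 and 90.7 CPM in WT. mt-Co1 (2) had 315 and 455 CPM in SAFB DKO, 27.7 and 73.8 CPM in EZH2 KO, and 157, 172 and 235 CPM in WT. Neither feature overlapped between groups, and both changed by nearly the same factor: 2.08-fold and 2.05-fold up in SAFB DKO (log2 1.05, SE 0.30, edgeR adjusted p = 0.0191, and log2 1.04, SE 0.27, edgeR adjusted p = 0.0121), and 3.51-fold and 3.70-fold down in EZH2 KO (log2 -1.81 and -1.89). They are parts of 1 gene and share some sequence with nuclear copies, so they are not separate evidence.

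mt-Cytb encodes cytochrome b, the mitochondrial subunit of complex III. Its sense feature had 391 and 560 CPM in SAFB DKO, 41.2 and 95.6 CPM in EZH2 KO, and 254, 272 and 361 CPM in WT. The groups did not overlap; SAFB DKO did not pass (log2 0.69, SE 0.25, edgeR adjusted p = 0.0621) and EZH2 KO fell (log2 -2.11, SE 0.27, edgeR adjusted p = 0.000128).

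On the minus strand the long mt-Nd6 feature held most of the counts. mt-Nd6 encodes a membrane subunit of complex I and is followed on that strand by a long stretch opposite to mt-Nd5 and mt-Nd4. The feature had 3488 and 3830 CPM in SAFB DKO, 262 and 605 CPM in EZH2 KO, and 1493, 1793 and 2574 CPM in WT. The groups did not overlap, with a rise of 0.91 on the log2 scale in SAFB DKO (SE 0.24, edgeR adjusted p = 0.0127) and a fall of 2.17 in EZH2 KO (SE 0.27, edgeR adjusted p = 8.69e-05). Per kilobase it was the highest feature in WT, at 609 ± 174 CPM per kb (SD, n = 3), next to 517 ± 114 CPM per kb for mt-Co1 (2), a gap smaller than either SD. Because the count covers the whole interval, RNA of mt-Nd6 itself and RNA opposite to mt-Nd5 cannot be told apart.

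mt-Cytb antisense changed most. It had 420 and 403 CPM in SAFB DKO, 16.8 and 31.8 CPM in EZH2 KO, and 144, 167 and 191 CPM in WT. The groups did not overlap, and the lowest SAFB DKO library was above every WT library, the highest EZH2 KO library below every one. It rose 2.46-fold in SAFB DKO (log2 1.30, SE 0.19, edgeR adjusted p = 9.43e-05) and fell 6.89-fold in EZH2 KO (log2 -2.78, SE 0.23, edgeR adjusted p = 6.01e-06), in each case the largest change among the 12. Without SAFB DKO replicate 2, WT replicate 1 or WT replicate 2 it was the single mitochondrial feature still called in SAFB DKO; without either EZH2 KO library, all 12 were called.

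The other antisense features were weaker. mt-Nd1 antisense had 69.1 and 78.7 CPM in SAFB DKO, 5.71 and 11.5 CPM in EZH2 KO, and 34.7, 35.7 and 51.8 CPM in WT, without overlap, and it rose in SAFB DKO (log2 0.86, SE 0.23, edgeR adjusted p = 0.0146) and fell in EZH2 KO (log2 -2.25, SE 0.28, edgeR adjusted p = 9.91e-05). mt-Nd2 antisense had 138 and 182 CPM in SAFB DKO, 18.8 and 39.3 CPM in EZH2 KO, and 78.1, 98.1 and 132 CPM in WT. SAFB DKO replicate 1 was close to WT replicate 3, the difference did not pass (log2 0.64, SE 0.25, edgeR adjusted p = 0.0875), and EZH2 KO fell (log2 -1.82, SE 0.28, edgeR adjusted p = 0.000433). mt-Co1 antisense, only 82 bases long, had 166 and 117 counts in SAFB DKO, 3 and 17 counts in EZH2 KO, and 78, 50 and 82 counts in WT, or 7.57 and 6.30, 0.451 and 2.67, and 3.59, 2.35 and 4.28 CPM in the same order. EZH2 KO replicate 2 lay within the WT values. Neither knockout passed for it: the log2 fold change was 1.03 in SAFB DKO (SE 0.41, edgeR adjusted p = 0.0922) and -1.13 in EZH2 KO (SE 0.54, edgeR adjusted p = 0.157). In SAFB DKO it passed with only the groups compared (log2 1.02, edgeR adjusted p = 0.00665), with column totals (log2 1.25, 0.0211), with DESeq2 (log2 1.28, 0.0304) and without EZH2 KO replicate 1 or 2. Without EZH2 KO replicate 2 its log2 fold change was -2.96 and passed.

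**Figure D4:**
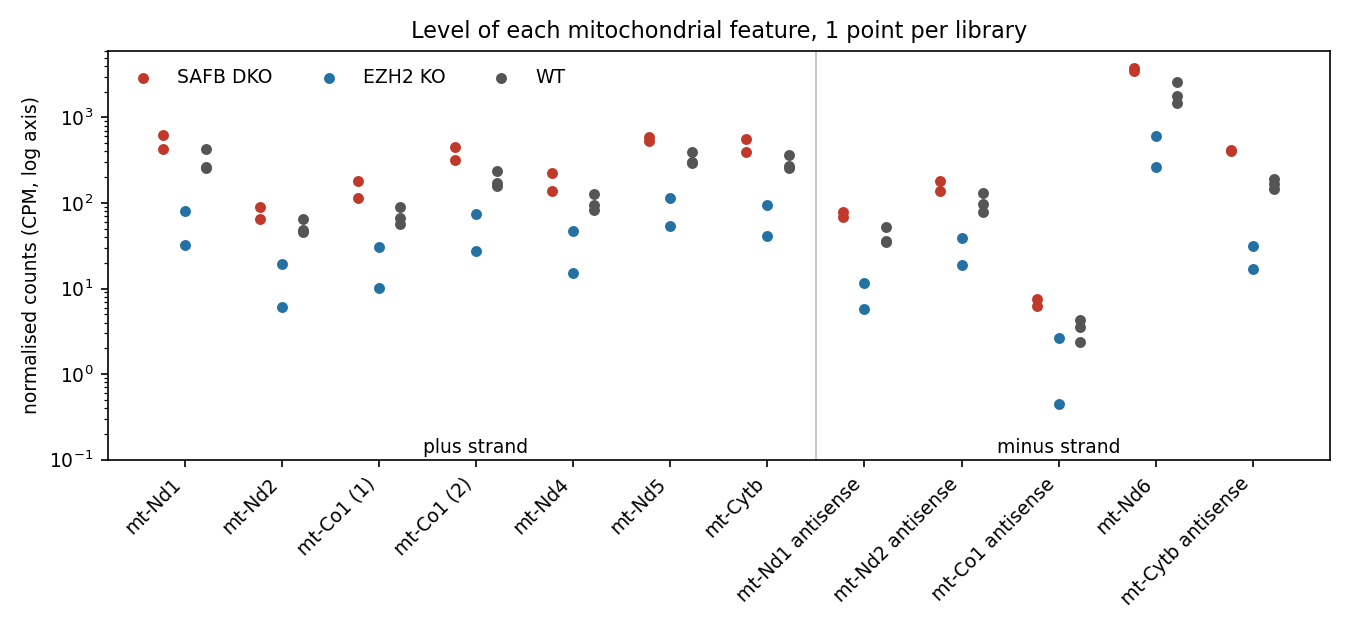
Points give the level of each feature in each library in CPM on a log axis, plus-strand features on the left and minus-strand features on the right, with SAFB DKO (red), EZH2 KO (blue) and WT (grey) side by side. The mt-Nd6 feature is highest in every library (3488 to 3830, 262 to 605 and 1493 to 2574 CPM), and mt-Co1 antisense lowest.

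Summed per gene, with features of more than 1 gene left out, 4 of 6 mitochondrial genes rose in SAFB DKO (15.3% of all 16710 tested genes rose) and 6 of 6 fell in EZH2 KO (22.5% fell). The 4 were mt-Co1, mt-Nd5, mt-Nd4 (log2 0.84, edgeR adjusted p = 0.0391) and mt-Cytb (log2 0.69, edgeR adjusted p = 0.0423). mt-Nd1 (edgeR adjusted p = 0.056) and mt-Nd2 (0.125) did not pass. With 1 library left out the count ran from 0, without SAFB DKO replicate 2, to 6, and it was 1 without WT replicate 1 or WT replicate 2; with DESeq2 it was 2.

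Between the knockouts all 12 features were higher in SAFB DKO than in EZH2 KO, where 16.6% of all tested features were higher and 23.3% lower. Nuclear features in exons of 1 gene leaned the same way as the 12, with 31.7% higher and 8.48% lower. For exonic features of nuclear respiratory chain and ATP synthase genes these shares were 75.7% and 1.06%. The median log2 difference was 0.98 over all exonic features, 2.18 over those of the respiratory chain and 2.83 over the 12. The log2 difference ran from 2.16 for mt-Co1 antisense (edgeR adjusted p = 0.00554) to 4.08 for mt-Cytb antisense (SE 0.25, edgeR adjusted p = 2.27e-09), which was 411 ± 11.6 CPM in SAFB DKO and 24.3 ± 10.6 CPM in EZH2 KO (SD, n = 2 each). The sum of all 12 was 8.11-fold higher in SAFB DKO (log2 3.02, SE 0.33, edgeR adjusted p = 2.45e-06), in a fit where 28.8% of rows were higher and 41.2% lower. This comparison shares its libraries with those against WT.

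Within mitochondrial RNA the makeup differed much less than the total. The mt-Nd6 feature took 57.2% and 53.0% of mitochondrial counts in SAFB DKO, 53.4% and 52.5% in EZH2 KO, and 51.2%, 54.4% and 55.3% in WT, with overlap between all groups. Minus-strand features took 64.9% ± 3.72 in SAFB DKO, 60.9% ± 1.46 in EZH2 KO and 62.4% ± 1.98 in WT; both knockouts overlapped WT (exact permutation p = 0.6 and p = 0.5). mt-Cytb antisense took 6.88% and 5.58% in SAFB DKO, 3.43% and 2.76% in EZH2 KO, and 4.93%, 5.07% and 4.10% in WT, without overlap. Each knockout against WT gave the smallest possible exact permutation p, 0.1, which did not pass (adjusted p = 0.525 over 42 comparisons). mt-Nd2 antisense ran the other way, at 2.25% and 2.52% in SAFB DKO, 3.83% and 3.41% in EZH2 KO, and 2.68%, 2.98% and 2.83% in WT. Its groups did not overlap either (exact permutation p = 0.1 for each knockout, adjusted p = 0.525). The same exact permutation p, 0.1, came up against WT for mt-Nd2 in SAFB DKO. In EZH2 KO it came up for mt-Co1 (1), mt-Co1 (2) and mt-Nd4. The 4 purely antisense features together took 9.83% ± 0.786 in SAFB DKO and 8.75% ± 0.551 in WT (exact permutation p = 0.2), and 7.95% ± 0.793 in EZH2 KO (exact permutation p = 0.3 against WT).

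The balance of the strands can also be read locus by locus, as minus-strand over plus-strand counts per base, each over the whole length of its feature; the features of a locus do not cover the same positions. At mt-Cytb it was 1.74 and 1.17 in SAFB DKO, 0.664 and 0.540 in EZH2 KO, and 0.919, 0.9995 and 0.860 in WT. The antisense RNA was thus denser than the sense RNA in both SAFB DKO libraries, nearly even with it in WT replicate 2 and less dense in the remaining libraries. The groups did not overlap (exact permutation p = 0.1 for each knockout against WT, adjusted p = 0.5 over 15 comparisons). At mt-Nd1 the ratio was 0.121 to 0.155 in SAFB DKO, 0.137 to 0.169 in EZH2 KO and 0.115 to 0.135 in WT. At mt-Co1 (1) it was 0.0909 to 0.170 in SAFB DKO, 0.115 to 0.229 in EZH2 KO and 0.0920 to 0.166 in WT. Sense RNA was denser than antisense RNA at both loci in every library. At mt-Nd2 the strands were closer, with 0.767 to 0.796 in SAFB DKO, 0.770 to 1.15 in EZH2 KO and 0.615 to 0.808 in WT. The whole mt-Nd6 feature, which also spans mt-Nd6, mt-Te and a stretch opposite to mt-Nd4, was denser than the mt-Nd5 feature in every library, at 3.72 to 3.80 in SAFB DKO, 2.80 to 3.01 in EZH2 KO and 2.84 to 3.76 in WT.

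**Figure D5:**
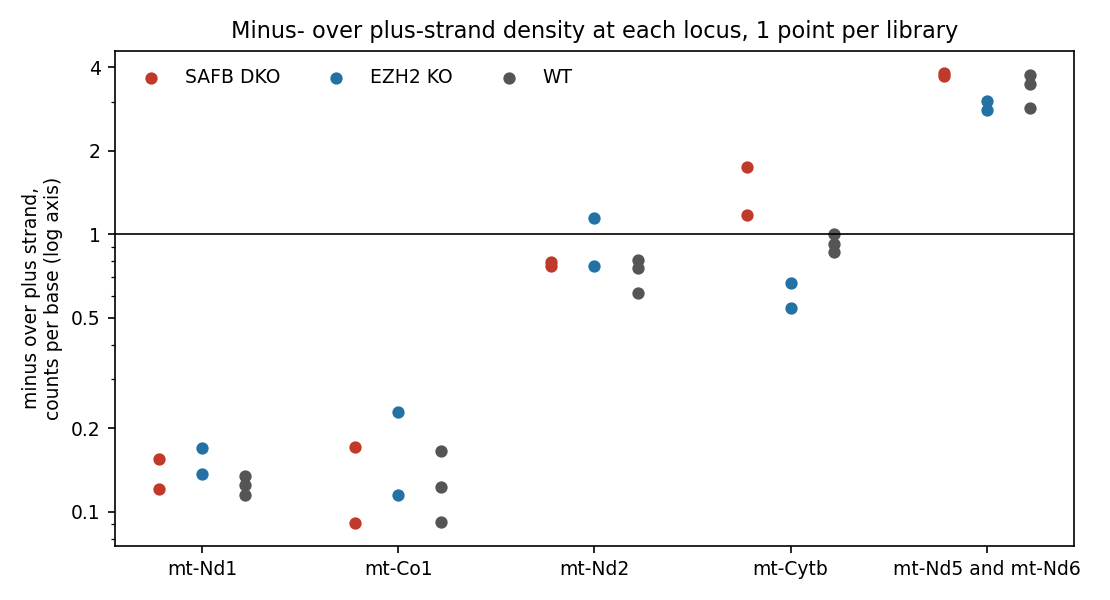
Points give, for each library, minus-strand over plus-strand counts per base at 5 loci on a log axis, with SAFB DKO (red), EZH2 KO (blue) and WT (grey); the line marks equal density. At mt-Cytb the SAFB DKO points (1.74 and 1.17) lie above the line and the EZH2 KO points (0.664 and 0.540) below the WT points (0.860 to 0.9995).

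Nuclear copies of mitochondrial DNA are pseudogenes whose reads can be those of the mitochondrial gene. Of 9 listed copies 2, Gm13340 and Gm13341, had features of their own. Gm13340, which shares 411 windows of 50 bases with mt-Co1, had 480 and 703 CPM in SAFB DKO, 35.5 and 97.8 CPM in EZH2 KO, and 274, 277 and 365 CPM in WT. The groups did not overlap, and its log2 fold changes, 0.95 in SAFB DKO (SE 0.29, edgeR adjusted p = 0.014) and -2.20 in EZH2 KO (SE 0.33, edgeR adjusted p = 0.000167), lie within the range of the 12 mitochondrial features. Gm13341, a copy of part of mt-Co2, rose in SAFB DKO (log2 0.89, SE 0.30, edgeR adjusted p = 0.0252) and fell in EZH2 KO (log2 -1.67, SE 0.36, edgeR adjusted p = 0.00199). In SAFB DKO neither passed without SAFB DKO replicate 2 (edgeR adjusted p = 0.181 for Gm13340 and 0.213 for Gm13341), WT replicate 1 (0.0546 and 0.0956) or WT replicate 2 (0.0562 and 0.0858), and Gm13341 did not pass with DESeq2 (0.0659). RNA of the copies and of the mitochondrial genes cannot be told apart in shared windows.

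The other subunits of the respiratory chain and ATP synthase are encoded in the nucleus. Of 78 such genes tested, 44 rose and 6 fell in SAFB DKO (median log2 0.67, beside -0.23 over all genes), and 4 rose and 52 fell in EZH2 KO (median -0.92, beside 0.02). In SAFB DKO 22 rose without SAFB DKO replicate 1 and 29 without SAFB DKO replicate 2. In EZH2 KO 2 rose, in place of 4, with column totals or without any library other than EZH2 KO replicate 1. Beside 15.3% and 34.6% of all genes, 56.4% of the list rose and 7.69% fell in SAFB DKO, and beside 25.3% and 22.5% of all genes, 5.13% rose and 66.7% fell in EZH2 KO. By complex, 17 of 35 (I), 3 of 4 (II), 8 of 9 (III), 8 of 11 (IV) and 8 of 19 genes (V, the ATP synthase) rose in SAFB DKO. There 4, 0, 0, 1 and 1 fell, in the same order. In EZH2 KO 17, 3, 9, 9 and 14 fell, and 4, 0, 0, 0 and 0 rose. Atp5a1, the alpha subunit of the ATP synthase, had 516 and 461 CPM in SAFB DKO, 103 and 95.5 CPM in EZH2 KO, and 249, 240 and 275 CPM in WT, and it rose in SAFB DKO (log2 0.94, edgeR adjusted p = 3.56e-05) and fell in EZH2 KO (log2 -1.36, edgeR adjusted p = 1.33e-05). Atp5b, its catalytic beta subunit, did the same (log2 0.96 and -1.29). The complex I genes Ndufv3 and Ndufs4 fell in SAFB DKO and rose in EZH2 KO. Ndufv3 had 41.8 and 36.2 CPM in SAFB DKO, 125 and 145 CPM in EZH2 KO, and 70.9, 77.5 and 68.0 CPM in WT. The rise of Ndufs4 in EZH2 KO (log2 0.39, edgeR adjusted p = 0.0344) did not pass in 9 of 15 alternatives, among them TMM over all features (adjusted p = 0.122), column totals (log2 0.14, adjusted p = 0.322) and the fits without any 1 library other than EZH2 KO replicate 1 (adjusted p = 0.0608 to 0.42). All counts of Atp5a1 and Atp5b lay in exonic features, against 8.5% of those of Ndufv3 and 16.3% of those of Ndufs4.

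Exonic and intronic features of the list were also tested one by one, an alternative added after the data were seen. Of 189 exonic features of the nuclear respiratory chain genes, 40 rose and 2 fell in SAFB DKO (21.2% rose, beside 5.32% of all exonic features), and 1 rose and 80 fell in EZH2 KO (42.3% fell, beside 14.7%). Of 158 intronic features, 3 rose and 13 fell in SAFB DKO (1.90% and 8.23%, beside 0.857% and 17.4% of all intronic features), and 8 rose and 17 fell in EZH2 KO (5.06% and 10.8%, beside 8.38% and 5.73%). The median log2 fold change of the intronic features was -0.03 in SAFB DKO and -0.46 in EZH2 KO, beside -0.31 and -0.10 over all intronic features. The median log2 fold change of the exonic features was 0.78 in SAFB DKO and -1.34 in EZH2 KO, smaller in size than the 0.85 and -2.02 of the mitochondrial features; that gap was not tested.

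The mitochondrial ribosome translates the mitochondrial messenger RNAs, and its proteins are encoded in the nucleus. Of 73 such genes tested, 21 rose and 5 fell in SAFB DKO (28.8% and 6.85%, beside 15.3% and 34.6% of all genes), and 9 rose and 27 fell in EZH2 KO (12.3% and 37.0%, beside 25.3% and 22.5%). With column totals as the scaling 38 rose in SAFB DKO. With 1 library left out the number that rose in SAFB DKO was 10 or 11 without any SAFB DKO or WT library and 36 without either EZH2 KO library, and 17 fell in EZH2 KO without WT replicate 1 or WT replicate 3. Tested one by one, 16 of 149 exonic features of this list rose and 5 fell in SAFB DKO (10.7% and 3.36%, beside 5.32% and 5.51% of all exonic features). In EZH2 KO 0 rose and 35 fell (23.5% fell, beside 14.7%). Of 201 intronic features, 17 rose and 12 fell in EZH2 KO (8.46% and 5.97%, beside 8.38% and 5.73%). Of the 4 genes with the highest level, Mrps28 fell in SAFB DKO and rose in EZH2 KO (log2 -1.47 and 0.98, with 3.18% of its counts exonic). Mrpl50, with all counts exonic, did likewise (log2 -1.78 and 0.54), but its rise in EZH2 KO did not pass with column totals (edgeR adjusted p = 0.0979), without WT replicate 1 (0.057) or without EZH2 KO replicate 2 (0.256). Mrpl15 rose in EZH2 KO (log2 0.41, edgeR adjusted p = 0.0362; 39.3% exonic), a call lost in 7 of 15 alternatives, among them TMM over all features (0.12), column totals (0.289) and without EZH2 KO replicate 2 (0.53). In SAFB DKO Mrpl15 had a log2 fold change of -0.36 (edgeR adjusted p = 0.0639), which passed in 4 alternatives. Mrpl45 did not pass against WT in either knockout in the reported fit.

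Of 44 tested genes for mitochondrial transcription and RNA processing, 12 rose and 10 fell in SAFB DKO (27.3% and 22.7%, beside 15.3% and 34.6% of all genes), and 14 rose and 14 fell in EZH2 KO (31.8% each way, beside 25.3% and 22.5%). With column totals 22 rose in SAFB DKO and 8 rose in EZH2 KO. In SAFB DKO 3 rose without SAFB DKO replicate 1, 6 without SAFB DKO replicate 2, 4 without WT replicate 1 and 6 without WT replicate 2. In EZH2 KO 9 rose without WT replicate 3 or EZH2 KO replicate 2, 8 fell without WT replicate 3 and 9 fell without EZH2 KO replicate 1. Tested one by one, 8 of 177 exonic features of this list rose and 10 fell in SAFB DKO (4.52% and 5.65%, beside 5.32% and 5.51% of all exonic features). In EZH2 KO 9 rose and 24 fell (5.08% and 13.6%, beside 3.95% and 14.7%), so exonic features were not split evenly. Lrpprc, which stabilises mitochondrial messenger RNAs, rose in SAFB DKO (log2 0.40, edgeR adjusted p = 0.0252) and had -0.16 in EZH2 KO (edgeR adjusted p = 0.373). The rise was lost when any 1 of the SAFB DKO or WT libraries was left out (adjusted p = 0.0529 to 0.157), and in EZH2 KO Lrpprc passed with column totals (log2 -0.41, adjusted p = 0.00554) and without EZH2 KO replicate 2 (log2 -0.41, adjusted p = 0.0225). Dhx30, a helicase needed for assembly of the mitochondrial ribosome, rose in SAFB DKO (log2 0.60) and fell in EZH2 KO (log2 -0.38, edgeR adjusted p = 0.0315). That fall did not pass without WT replicate 1 (0.0913), WT replicate 2 (0.0716) or WT replicate 3 (0.0834). Twnk, the helicase that replicates mitochondrial DNA, fell to 42.4 and 43.5 CPM in SAFB DKO and rose to 231 and 257 CPM in EZH2 KO, against 114, 113 and 94.1 CPM in WT. Trub2, a pseudouridine synthase, likewise fell in SAFB DKO and rose in EZH2 KO (log2 -1.10 and 1.10). All counts of Twnk and 86.8% of those of Trub2 were exonic.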

How the data were processed

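RNA precipitated with an EZH2 antibody was sequenced from 7 libraries of 3 groups. The authors deposited read counts per peak interval, made with featureCounts 2.0.3 per the file headers, as reverse-stranded and with neither multi-mapping nor overlapping assignment set; the submitters' processing notes list mm10, Subread and featureCounts. The aligner and peak caller are not given in the sources used here. Intervals are peaks of pooled WT. A further 3 value columns and the ERCC spike-in were not used here.

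Counts were tested as deposited with the edgeR 4.0.16 quasi-likelihood test (R 4.3.3, limma 3.58.1), all 7 libraries in 1 fit, after filterByExpr, with TMM factors from features outside the filtered list and Benjamini-Hochberg adjustment over all tested rows. CPM values use these scaled totals, apart from the summed marker levels, which use column totals. Features were summed per gene where they overlap 1 gene. Shares were compared by exact permutation (scipy 1.17.1). The edgeR script was tested on simulated data. DESeq2 1.42.0, other scalings and filters, a replicate block and leaving out each library were alternatives. Named nuclear genes are the 4 of each list with the highest mean CPM. The members and lists were chosen with earlier results of these data known. Mitochondrial sequence was read from GENCODE M21 transcripts; 141730 nuclear transcripts were searched for shared windows.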

Additional observations from a re-analysis of the deposited data

How the results depend on the processing

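Mitochondrial directions were the same in every alternative run. The number of features called in SAFB DKO against WT, 6 in the reported fit, was 10 with TMM over all features, 12 with column totals, 10 with no filter on low counts, 12 with only the groups compared and 11 with DESeq2; with 1 library left out it ran from 1 to 12. Of the genes, 4 in the reported fit, 2 were called with DESeq2 and 0 to 6 with 1 library left out. Left-out libraries moved the log2 fold change in SAFB DKO from 0.72 to 1.08 for the sum of all features, 0.69 to 1.06 for messenger RNA features, 0.52 to 1.00 for the plus strand and 0.76 to 1.14 for the minus strand. In EZH2 KO the sum ran from -2.95 to -1.72. The cause of these shifts was not tested. For the counts of calls, the share of all features or genes called in each alternative is not given here.

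Column totals moved the median log2 fold change of all features by 0.222 in SAFB DKO and -0.254 in EZH2 KO, and DESeq2 by 0.251 in SAFB DKO. Mrpl45, called in no comparison with WT in the reported fit, turned sign. In SAFB DKO it was 0.083 with column totals, 0.109 with DESeq2 and -0.349 to 0.0072 with 1 library left out. In EZH2 KO it was -0.060 with column totals, -0.241 without EZH2 KO replicate 2 and 0.452 without EZH2 KO replicate 1. Between the knockouts it was 0.143 with column totals and -0.605 to 0.090 with 1 left out. Ezh2 in SAFB DKO was 0.023 with column totals and 0.055 with DESeq2. The fit with the replicate block held only replicates 1 and 2 of WT and EZH2 KO. In it the sum in EZH2 KO against WT was -2.06, and 11 features and 6 genes fell. No mitochondrial call changed. Libraries with the same number had correlations of deviations of 0.0271 and 0.000575 over 192964 features. Because the 2 EZH2 KO libraries mirror each other around their mean, swapped numbers gave -0.0271 and -0.000575. Whether the numbers pair the samples cannot be decided from these values. In the block fit Ndufs4 (0.33, edgeR adjusted p = 0.0544) and Dhx30 (-0.37, edgeR adjusted p = 0.0565) were not called in EZH2 KO. Both calls were also lost without WT replicate 3 alone (edgeR adjusted p = 0.0758 and 0.0834). The block and the missing libraries thus cannot be told apart. What depth limits was not tested; mt-Co1 antisense had the fewest counts.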
